A study of Mus musculus with 33 samples.

Results

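The granzymes and the other genes of the cytotoxic granule were followed through 33 RNA libraries of CD8 T cells sorted from the skin of mice allergic to the hapten dinitrofluorobenzene (DNFB). The 10 genes were taken by name: the granzymes Gzma, Gzmb, Gzmc, Gzmd, Gzme, Gzmf and Gzmk, the pore former Prf1, the granule proteoglycan Srgn and the granule membrane protein Nkg7. They are 10 of the 19449 gene rows in the 2 count tables together. The series concerns topical glucocorticosteroids in allergic skin inflammation and TRM, the resident memory T cells that remain in skin after it and are marked by CD69 and CD103. DNFB on the skin of sensitized mice gives contact hypersensitivity, which models allergic contact dermatitis and is driven by CD8 T cells.

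The first experiment (17 libraries in 8 sets) used Nur77GFP mice, in which GFP follows the Nr4a1 promoter and marks cells whose T cell receptor has signalled recently. Its sets are CD45+CD8+CD69+CD103+ TRM treated with the glucocorticosteroid TA (0.01%) or with acetone. They were taken 24 hours after DNFB retest (day 1, GFP-positive and GFP-negative cells apart), 144 hours after it (day 6, GFP-negative) or just before it (day 0, GFP-negative). The second experiment (16 libraries in 8 sets) used C57BL/6 mice. It holds CD69+CD103+ TRM of day 11 and day 42 after acetone or TA, and 4 subsets by CD69 and CD103 from day 2, which had no treatment. Every set has 2 libraries except day 0 acetone, which has 3. The age of the mice was not given. Nothing says that the libraries of a set came from separate mice, so the p-values speak of the spread among these libraries, which may be technical.

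The count tables name sets by codes, and a set is named here only as far as the labels leave 1 reading. Code 1 is day 0 acetone. Codes 4 and 3 are the arms of day 1, one of them TA and the other acetone, and which is which cannot be told from the labels. Codes 2, 5 and 6 are day 0 TA, day 6 acetone and day 6 TA in an unknown order. In the second experiment 1_03 is the day 2 CD69+CD103+ subset, 1_02, 1_04 and 1_05 are the other day 2 subsets, and 2_03, 3_03, 4_03 and 5_03 are the day 11 and day 42 TRM. No code was named from expression.

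Cytotoxic T cells kill by releasing granules onto a target cell. Perforin, the product of Prf1, opens pores through which granzymes enter, and granzymes are serine proteases that start the death of the target. Granzyme B cleaves after aspartate and activates caspases. Granzyme A and granzyme K have tryptase-like activity. Serglycin, the product of Srgn, holds granzymes in the granule, and Nkg7 is a membrane protein needed for efficient granule release. T cell receptor signals and cytokines raise granzyme B in CD8 T cells, and in mice the genes next to Gzmb are best known from activated T cells.

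Gzmb, Gzmc, Gzmf, Gzmd and Gzme lie in 1 cluster on the minus strand of chromosome 14 (GRCm38, GENCODE). From the Gzmb side they are Gzmb at chr14:56258838-56262260, Gzmc at chr14:56231441-56234656, Gzmf at chr14:56205263-56211417, Gzmd at chr14:56129556-56132608 and Gzme at chr14:56117626-56120625, each with 5 exons. Gzma (chr13:113093825-113100981) and Gzmk (chr13:113171608-113225908) are neighbours on the minus strand of chromosome 13. Prf1 lies at chr10:61297833-61304680 on the plus strand, Srgn at chr10:62493833-62527451 on the minus strand and Nkg7 at chr7:43437073-43438249 on the plus strand. Neighbouring granzymes can be alike in sequence, so the ends of their transcripts were compared. The last 500 bases of Gzmd and Gzme were 96.5% identical over 481 aligned bases and shared 22 of 426 words of 75 bases, the read length. Their counts are therefore uncertain. The other pairs among Gzmc, Gzmd, Gzme and Gzmf, and the pair of Gzma and Gzmk, shared no such word there. Over the bases that aligned, Gzmf was 87.0% identical to Gzmd and 88.7% to Gzme. Gzmc was 65.4 to 67.9% identical to Gzmd, Gzme and Gzmf, and Gzma 64.0% to Gzmk.

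The promoters (300 bases, 250 before the RefSeq start and 50 after it, GRCm38.p6) of 4 granzymes are shown because these genes differed most from set to set: the 3 neighbours Gzmb, Gzmc and Gzmf, and Gzma from the other locus. They run 5′ to 3′ along the gene, and capitals mark matches to 5 motifs searched on both strands.
Gzmb (chr14:56262285-56262584, minus strand): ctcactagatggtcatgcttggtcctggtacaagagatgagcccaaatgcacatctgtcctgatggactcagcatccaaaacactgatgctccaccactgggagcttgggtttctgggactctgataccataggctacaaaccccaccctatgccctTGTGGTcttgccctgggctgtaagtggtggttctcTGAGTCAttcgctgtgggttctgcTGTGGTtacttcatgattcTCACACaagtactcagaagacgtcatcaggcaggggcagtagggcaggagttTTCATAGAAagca
Gzmc (chr14:56234608-56234907, minus strand): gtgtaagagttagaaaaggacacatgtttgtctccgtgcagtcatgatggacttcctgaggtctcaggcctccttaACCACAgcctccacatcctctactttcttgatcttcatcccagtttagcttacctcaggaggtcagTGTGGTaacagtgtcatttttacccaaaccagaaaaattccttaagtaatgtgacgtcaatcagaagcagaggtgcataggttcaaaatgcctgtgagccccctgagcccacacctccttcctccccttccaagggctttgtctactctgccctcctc
Gzmf (chr14:56211358-56211657, minus strand): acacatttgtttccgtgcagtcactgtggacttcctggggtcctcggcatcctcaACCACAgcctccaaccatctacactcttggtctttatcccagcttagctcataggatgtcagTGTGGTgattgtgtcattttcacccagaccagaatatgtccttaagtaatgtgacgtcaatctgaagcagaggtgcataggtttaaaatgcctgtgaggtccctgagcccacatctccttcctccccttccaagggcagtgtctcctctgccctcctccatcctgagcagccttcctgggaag
Gzma (chr13:113100932-113101231, minus strand): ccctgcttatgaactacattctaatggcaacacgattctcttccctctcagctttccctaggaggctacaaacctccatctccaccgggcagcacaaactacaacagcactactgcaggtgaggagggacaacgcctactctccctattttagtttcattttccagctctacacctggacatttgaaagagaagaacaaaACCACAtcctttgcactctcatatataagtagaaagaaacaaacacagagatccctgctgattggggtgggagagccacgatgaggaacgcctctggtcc

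The motifs were TGANTCA (the AP-1 element, found in 7.81% of 32851 mouse promoters of that length), TGTGGT (the RUNX element, 16.8%), GTGTGA (a T-box element, 14.5%), TTCNNNGAA (the STAT element, 8.3%) and the palindromic glucocorticoid response element (0.475%). Gzmb held 1 AP-1 match beginning 58 bases before the start, RUNX matches at 93 and 34 bases before it, a T-box match at 15 bases before it and a STAT match 38 bases into the transcript, which lies outside the 250 bases upstream. Gzmc and Gzmf each held only RUNX matches, a pair 174 and 108 bases before the start of Gzmc and a pair 195 and 133 bases before that of Gzmf. Gzma held 1 RUNX match, 50 bases before its start. Gzmc and Gzmf promoters were 86.9% identical over 275 aligned bases, and those of Gzmd and Gzme 94.0% over 299. None of the members' windows held the glucocorticoid palindrome. A match is only a run of letters, and a window without one says nothing about the factor.

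**Figure D1:**
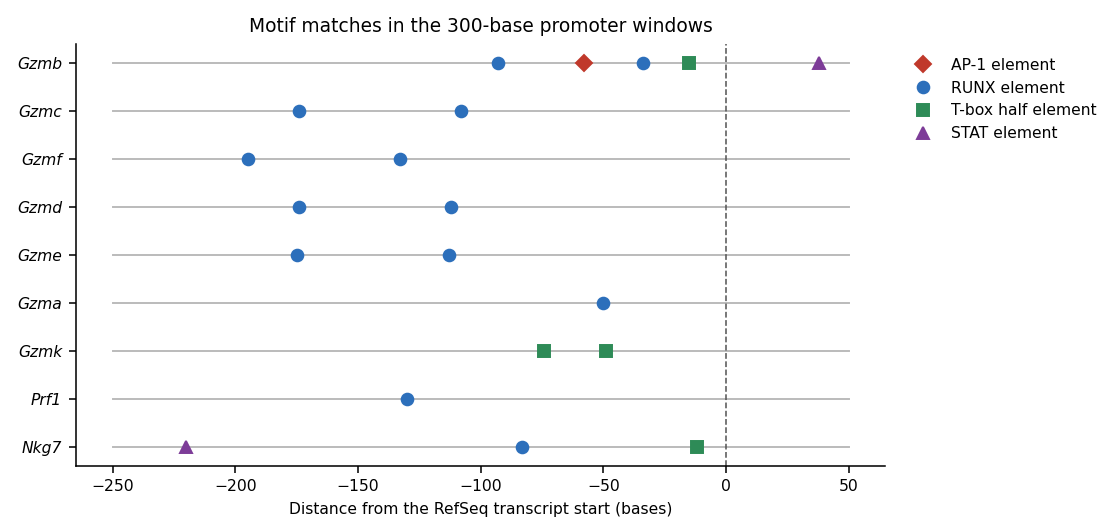
Matches to the motifs in the promoters of 9 members by distance from the RefSeq start (x axis, bases; 1 row per gene). Gzmb is the row with matches to 4 motifs, and Gzmc and Gzmf each have a pair of RUNX matches.

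Library totals ran from 2442825 to 8515297 reads in the first experiment and from 2937814 to 13629838 in the second. Levels below are read counts scaled to the library's total over all genes (CPM), and the 10 genes took 0.894 to 6.73% of them in the first experiment and 1.24 to 3.59% in the second. Mitochondrial transcripts took 22.2 to 36.7% and 12.8 to 21.3%. Differences are log2, from edgeR's quasi-likelihood test with scaling factors for each library, so they need not equal the ratio of mean CPM. Each is given with its SE and a p-value adjusted over all tested genes, and a gene counts as called under 0.05. Of the 10 genes, 7 passed the filter on low counts in the first experiment, without Gzmd, Gzme and Gzmk, and 8 in the second, without Gzmd and Gzme. Of the genes behind the sort, Cd8a had 450 to 957 CPM in the first experiment. Nr4a1 was higher in GFP-positive than in GFP-negative cells (log2 1.83). Itgae, which encodes CD103, had 29.7 to 47.0 CPM in the code 4 GFP-positive libraries and 40.9 to 48.2 in the code 3 GFP-positive ones, the lowest sets of the first experiment, and 68.3 and 88.3 CPM in set 1_03. CD8 T cell markers summed to a mean of 1876 CPM in code 3 GFP-positive and 3799 in code 3 GFP-negative libraries. In code 4 these means were 2573 and 2778, and at day 0 acetone 5598. The TRM sort markers Itgae, Cd69 and Cxcr6 summed to means of 360.4 and 619.8 CPM in code 3, 397.5 and 506.8 in code 4 and 899.3 at day 0. Cd69 was not called among the day 2 subsets, which were sorted on it (edgeR adjusted p = 0.79). In such pooled cells, fewer cells that use a gene and less RNA per cell cannot be told apart.

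At day 1, GFP-positive TRM held more granzyme RNA than GFP-negative TRM of the same arm. Over both arms Gzmb, Gzmc, Gzmf, Prf1 and Srgn were higher, while Gzma and Nkg7 were not called. These were 5 of the 7 tested members, all higher, against 5.59% of all 11588 tested genes called higher, 6.51% called lower and 12.1% called in either direction. Within the code 4 arm 4 members were called, all higher (4.06% of genes higher, 4.01% lower, 8.07% either way), and within the code 3 arm 3 were, all higher (2.33%, 3.03% and 5.36%). The members' median log2 difference was 1.11, against -0.03 for all tested genes.

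Gzmb, the main killer granzyme, had 8470 and 8097 CPM in code 4 GFP-positive libraries, against 1594 and 1573 in code 4 GFP-negative ones. It had 46610 and 44220 CPM in code 3 GFP-positive libraries and 23970 and 21110 in GFP-negative ones. The GFP sorts did not overlap within either arm. The log2 difference was 2.49 ± 0.14 in the code 4 arm (SE, adjusted p = 5.38e-10) and 1.17 ± 0.13 in the code 3 arm (adjusted p = 9.63e-06). In CPM the gap between the GFP sorts was wider in the code 3 arm. Tested directly on the log2 scale, the GFP difference was larger in the code 4 arm by 1.32 ± 0.19 (SE, adjusted p = 0.000807). Gzmb and Gzmc were the 2 members of 7 called for this difference between arms, both larger in code 4, against 0.639% of genes called larger in code 4, 0.25% smaller and 0.889% either way.

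Gzmc, whose gene is the nearest member to Gzmb, had 252.0 and 269.5 CPM in code 4 GFP-positive libraries and 30.7 and 27.0 in code 4 GFP-negative ones. Code 3 GFP-positive libraries had 606.9 and 647.7 CPM and the GFP-negative ones of that arm 320.6 and 310.6. The code 4 GFP-negative cells were the lowest of the 4 sets, as for Gzmb. The difference was 3.28 ± 0.32 in the code 4 arm (adjusted p = 2.74e-06) and 1.15 ± 0.28 in the code 3 arm (adjusted p = 0.0186). The second of these lost its call without any 1 of the 4 code 3 libraries: GFP-negative A (adjusted p = 0.119) or B (0.188), or GFP-positive A (0.0736) or B (0.143). The arms' GFP differences differed by 2.12 ± 0.42 (adjusted p = 0.0162). That call was lost without code 3 GFP-negative A (0.0831), GFP-positive A (0.103) or B (0.0675), and without code 4 GFP-negative A (0.0532) or B (0.0845) or GFP-positive B (0.0561).

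Gzmf, the next member in the cluster, had 152.9 and 172.8 CPM in code 4 GFP-positive libraries, against 49.1 and 51.6 in code 4 GFP-negative ones. Gzmf had 83.6 and 71.9 CPM in code 3 GFP-positive libraries and 49.3 and 55.2 in GFP-negative ones. The GFP-positive libraries of the code 4 arm were the highest of the day 1 sets, whereas for Gzmb and Gzmc those of code 3 were. It was higher in GFP-positive cells by 1.80 ± 0.28 in the code 4 arm (SE, adjusted p = 0.000417) and by 1.27 ± 0.20 over both arms (adjusted p = 0.000149). In the code 3 arm the difference of 0.73 was not called (adjusted p = 0.15), and the difference between arms, 1.06 ± 0.39, was not called either (adjusted p = 0.263).

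Prf1 was sparser in reads, with 23.9 and 38.5 CPM in code 4 GFP-positive libraries and 12.3 and 18.3 in code 4 GFP-negative ones. Code 3 GFP-positive libraries had 44.2 and 56.4 CPM and GFP-negative ones 29.0 and 24.0. Within each arm the GFP-positive libraries lay above the GFP-negative ones. Over both arms the difference was 1.11 ± 0.28 (adjusted p = 0.0106), and it lost its call without code 3 GFP-negative B (0.0697), code 3 GFP-positive B (0.0762) or code 4 GFP-positive B (0.0657). Within 1 arm it was 1.13 in code 4 (adjusted p = 0.093) and 1.08 in code 3 (adjusted p = 0.124), not called by edgeR, while DESeq2 called both (0.042 and 0.0469).

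Srgn had 20990 and 22080 CPM in code 4 GFP-positive libraries, against 11050 and 10200 in code 4 GFP-negative ones. The code 3 arm had 18630 and 14220 CPM in GFP-positive libraries and 9454 and 9678 in GFP-negative ones. All GFP-positive libraries lay above all GFP-negative ones, and the difference was 1.12 ± 0.10 in the code 4 arm (adjusted p = 4.34e-07) and 0.94 ± 0.10 in the code 3 arm (adjusted p = 3.04e-06). Gzma had 89.8 and 106.4 CPM in code 4 GFP-positive libraries and 82.3 and 90.9 in GFP-negative ones, which overlap. In the code 3 arm its GFP-positive libraries had 181.8 and 192.7 CPM and its GFP-negative ones 149.1 and 191.5. The differences of 0.28 in code 4 (adjusted p = 0.424) and 0.31 in code 3 (adjusted p = 0.472) were not called. Nkg7 was not called for GFP in either arm: it had 587.9 and 537.2 CPM in code 4 GFP-positive libraries against 514.2 and 505.3 in GFP-negative ones, and 1141 and 1228 CPM in code 3 GFP-positive libraries against 1260 and 1090 in GFP-negative ones.

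**Figure D2:**
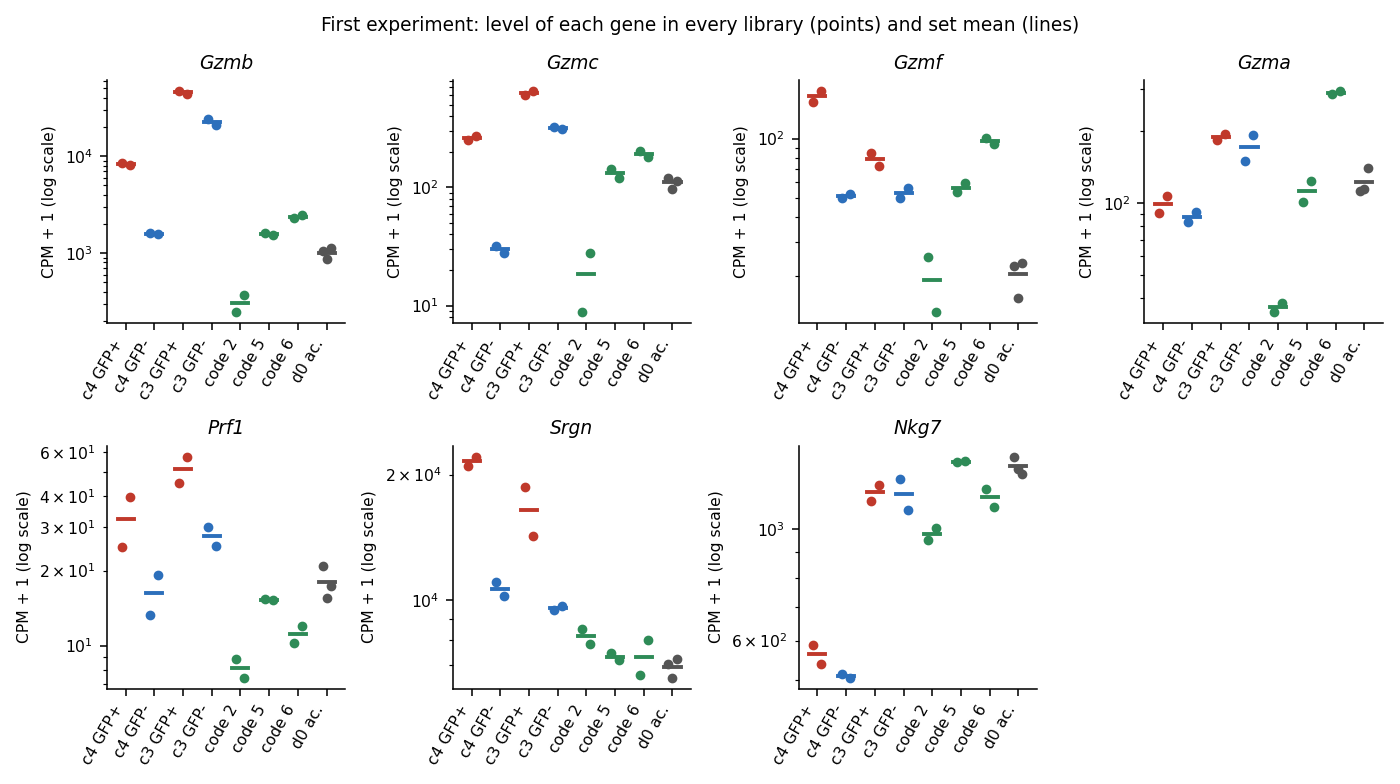
CPM + 1 on a log scale (y axis) of the members in the 8 sets of the first experiment (x axis; c4 and c3 are codes 4 and 3, d0 ac. is day 0 acetone), with a point per library and a line at each set's mean. Gzmb is highest in the code 3 GFP-positive libraries (46610 and 44220 CPM) and lowest in the code 2 libraries (245.3 and 364.5 CPM), while Gzmf is highest in the code 4 GFP-positive libraries.

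Other genes of the pathway moved with the GFP sort in both directions. Of 4 tested serpins in the list of granzyme inhibitors (5 listed), Serpinb6b, Serpinb9 and Serpina3g were higher in GFP-positive cells and Serpinb6a was lower. Not each serpin on this list is an established granzyme inhibitor, and inhibitors below means the genes of the list. Serpinb9, which inhibits granzyme B, averaged 460.5 CPM in GFP-positive and 157.9 in GFP-negative libraries (log2 1.82 ± 0.26, adjusted p = 0.00014), and Serpinb6b 422.5 and 109.0 (2.16 ± 0.20, adjusted p = 4.15e-07). Of 14 tested regulators of effector transcription 5 were higher and none was lower. Among them were the factors Irf4 (45.1 against 3.62 CPM, log2 3.71) and Stat5a (48.7 against 6.10 CPM, log2 2.86), which relay T cell receptor and cytokine signals. Of 9 tested genes of granule contents and processing, Calr, which encodes the chaperone calreticulin, was higher (535.1 against 308.4 CPM). The granule proteases Ctsd (90.6 against 192.8 CPM) and Ctsw (178.6 against 326.6 CPM) were lower. Of 12 tested genes of granule transport and release, 1 was higher and 4 were lower. The higher one was Stx11, a syntaxin needed for granule fusion (77.3 against 30.0 CPM, log2 1.43), and the lower ones included Coro1a (84.8 against 242.7 CPM, log2 -1.40). The cytokine gene Tnf was the 1 of 5 death ligand genes called (149.0 against 48.5 CPM, log2 1.54). The lists' medians were 1.47 for the inhibitors, 0.73 for the regulators, -0.10 for contents, -0.38 for transport and -0.10 for death ligands, beside -0.03 for all tested genes.

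Markers of other cells also moved with the GFP sort. Of 10 tested mononuclear phagocyte markers 4 were higher in GFP-positive cells. In the code 4 arm their summed level was 319.4 to 336.0 CPM in GFP-positive libraries and 19.6 to 54.4 in GFP-negative ones, where C1qa, C1qb and Csf1r were at 0. In the code 3 arm it was 656.7 to 845.7 CPM in GFP-positive and 823.2 to 830.6 in GFP-negative libraries. Keratinocyte markers summed to 508.8 to 601.1 CPM in GFP-positive and 509.7 to 693.9 in GFP-negative libraries of code 4, and to 1159 to 1523 and 2192 to 2402 CPM in these sorts of code 3. Of 11 tested, 1 was higher and 3 were lower in GFP-positive cells over both arms. Gamma delta and epidermal T cell markers summed to 4.29 to 14.9 CPM in GFP-positive libraries of code 4, against 64.7 to 79.8 in GFP-negative ones, and to 13.7 to 26.9 against 57.7 to 58.3 CPM in code 3. Of 3 tested, Tmem176a and Tmem176b were lower. Summed natural killer and innate cell markers were 7.05 to 47.4 CPM in GFP-positive against 72.3 to 76.1 in GFP-negative libraries of code 4, and 58.3 to 59.0 against 66.7 to 91.0 in code 3. Of 3 tested, Klrb1c was lower in GFP-positive cells and none was higher, and mast cell markers were at most 8.46 CPM in the first experiment. The part of these cells in the granzyme differences was not tested.

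The arms of day 1 differed in 4 members in both GFP sorts. In GFP-negative cells the code 4 arm was lower than the code 3 arm in Gzmb, Gzmc, Gzma and Nkg7. These were 4 of 7 tested members, against 4.7% of tested genes called lower, 1.98% called higher and 6.69% called in either direction. The members' median was -1.02, beside -0.07 for all genes. In GFP-positive cells the same 4 genes were lower in code 4, against 2.24% called lower, 0.923% called higher and 3.17% in either direction, with a median of -1.05 beside -0.09.

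Gzmb averaged 1584 CPM in code 4 and 22540 in code 3 GFP-negative libraries, which is 14.8-fold lower in code 4 (log2 -3.89 ± 0.15, adjusted p = 2.36e-12). In GFP-positive libraries it averaged 8284 CPM in code 4 and 45420 in code 3, 5.93-fold lower (-2.57 ± 0.14, adjusted p = 5.3e-10). The GFP-positive libraries of code 4 thus stayed under the GFP-negative libraries of code 3. Gzmc averaged 28.8 CPM in code 4 and 315.6 in code 3 GFP-negative libraries (log2 -3.50 ± 0.32, adjusted p = 6.82e-07). In GFP-positive libraries it averaged 260.8 and 627.3 CPM in these arms (-1.38 ± 0.29, adjusted p = 0.0103), a call lost without code 3 GFP-positive B (0.0686) or code 4 GFP-positive A (0.0934) or B (0.0573).

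Nkg7 averaged 509.8 CPM in code 4 and 1175 in code 3 GFP-negative libraries (-1.26 ± 0.13, adjusted p = 2.97e-06), and 562.5 and 1184 CPM in GFP-positive ones (-1.19 ± 0.13, adjusted p = 1.38e-05). Gzma averaged 86.6 CPM in code 4 and 170.3 in code 3 GFP-negative libraries (-1.02 ± 0.20, adjusted p = 0.00242), and 98.1 and 187.2 CPM in GFP-positive ones (-1.05 ± 0.19, adjusted p = 0.00357). The last call was lost without code 4 GFP-positive A (0.062). Gzmf did not follow these 4: its GFP-negative libraries overlapped between arms, and in GFP-positive cells its level was higher in code 4, a difference of 0.96 ± 0.27 that was not called (adjusted p = 0.0616). That difference was called by DESeq2 (adjusted p = 0.00351) and without code 2 replicate A (0.0426) or B (0.0418). Prf1 differed by -0.85 in GFP-negative cells (adjusted p = 0.234) and -0.81 in GFP-positive cells (adjusted p = 0.329), neither called, and Srgn by 0.28 in GFP-positive cells (adjusted p = 0.141), which DESeq2 called (0.0283).

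Among the pathway genes in GFP-negative cells, Ctsc, the protease that activates progranzymes, was higher in code 4 (152.9 against 53.1 CPM, log2 1.47, adjusted p = 0.00663) and Calr lower, 2 of 9 in contents. Serpinb9 was lower (84.0 against 231.8 CPM, -1.51, adjusted p = 0.0215), the 1 called of 4 inhibitors. Of the death ligand genes Fasl was higher (82.1 against 38.0 CPM, log2 1.06) and Lta lower (16.04 against 79.85 CPM, -2.36). Of 14 regulators Runx3 (39.0 against 85.5 CPM, -1.17) and Irf8 (10.2 against 72.4 CPM, -2.88) were lower, and of 12 transport genes Kif5b was (44.6 against 90.1 CPM). In GFP-positive cells the called genes were Lamp1 and Calr of contents and Tnf of death ligands, all lower, and Sytl2 of transport, higher. Of 4 inhibitors and 14 regulators edgeR called none there, and 6 of the regulators had an unadjusted p under 0.05. Tnf was also the 1 pathway gene whose GFP difference differed between arms (-2.79 ± 0.42, adjusted p = 0.00125). In the medians of the GFP-negative comparison, contents stood at -0.47, transport at -0.17, inhibitors at -0.50, death ligands at 0.44 and regulators at 0.21, beside -0.07 for all genes.

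The arms also differed in markers of other cells and in depth. In GFP-negative cells 7 of 11 tested keratinocyte markers, 4 of 10 phagocyte markers and 2 of 5 neutrophil markers were lower in code 4, and none of these was higher. Keratinocyte markers summed to 509.7 to 693.9 CPM in code 4 and 2192 to 2402 in code 3, and phagocyte markers to 19.6 to 54.4 and 823.2 to 830.6, with C1qa, C1qb and Csf1r at 0 in code 4. Neutrophil markers summed to 11.5 to 11.9 CPM in code 4 and 87.5 to 92.6 in code 3, with Csf3r at 0 in both. In GFP-positive cells keratinocyte markers summed to 508.8 to 601.1 CPM in code 4 and 1159 to 1523 in code 3. The code 4 libraries held 2442825 to 3262545 reads and 29.3 to 36.7% mitochondrial counts, and those of code 3 held 5440609 to 8515297 reads and 22.4 to 28.6%. The part of these in the granzyme differences was not tested. Natural killer and mast cell markers, whose cells also hold granule proteases, had no gene called by edgeR between arms in either sort, though 2 of 3 natural killer markers had an unadjusted p under 0.05 in each, and mast cell markers were at 0 in code 4 GFP-negative libraries.

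Tsc22d3, a gene that glucocorticoids are known to induce, was higher in code 4 than in code 3 in GFP-negative cells (log2 1.37, adjusted p = 0.000691). In GFP-positive cells it was higher too (1.63, adjusted p = 0.000299). Tsc22d3 was also lower in GFP-positive than in GFP-negative cells over both arms (-0.97, adjusted p = 0.000331). Against day 0 acetone it was higher in code 2 (1.90) and code 6 (0.81). Fkbp5 was called higher than at day 0 in code 2 (2.51) but not in code 6, and Per1 was called in neither of these. Between arms Fkbp5 was called higher in code 4 in both sorts (1.71 and 1.95), and Per1 was called in neither. Against day 0 acetone, Per1 was called higher in code 4 GFP-negative (1.15) and GFP-positive cells (1.18), as was Fkbp5 (2.05 and 1.88). In code 3 neither gene was called against day 0. These values were not used to name the arms.

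Each day 1 set was also set against day 0 acetone, whose 3 libraries all these comparisons share. All 8 day 1 libraries held more Gzmb than those of day 0, which had 1049, 865.8 and 1121 CPM. In code 4 GFP-positive cells 5 of 7 members were higher and Nkg7 was lower, against 8.39% of genes called higher, 10.5% lower and 18.9% either way. In code 3 GFP-positive cells 6 were higher and none lower, against 9.92%, 9.07% and 19.0%. Of GFP-negative cells, code 4 had 3 higher and 2 lower (3.48% and 5.15% of genes, 8.63% either way), and code 3 had 5 higher (2.78%, with 1.16% lower and 3.94% either way). The members' medians were 1.52, 1.95, 0.01 and 0.86 in that order. The median of all genes stood at -0.14 for code 4 GFP-positive and -0.11 for code 4 GFP-negative cells, so code 4 differences are best read against those shifts.

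For Gzmb the difference from day 0 was 3.29 ± 0.12 in code 4 GFP-positive and 0.80 ± 0.12 in code 4 GFP-negative cells (adjusted p = 3.45e-13 and 0.000178). In code 3 it was 5.86 ± 0.14, or 58.1-fold, in GFP-positive cells (adjusted p = 1.15e-16) and 4.69 ± 0.13, or 25.9-fold, in GFP-negative cells (adjusted p = 6.05e-15). Gzmc was higher in code 4 GFP-positive cells (1.52 ± 0.26, adjusted p = 0.000295) and lower in code 4 GFP-negative cells (-1.76 ± 0.29, adjusted p = 0.00065) than at day 0, where it had 118.7, 96.5 and 111.5 CPM. In code 3 Gzmc was higher than at day 0 in both sorts, by 2.90 ± 0.26 in GFP-positive and 1.75 ± 0.26 in GFP-negative cells.

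Gzmf was above the day 0 libraries (21.6, 14.5 and 22.4 CPM) in every day 1 library. It was higher by 3.34 ± 0.26, or 10.1-fold, in code 4 GFP-positive cells (adjusted p = 1.68e-08), by 1.54 ± 0.26 in code 4 GFP-negative cells, by 2.38 ± 0.25 in code 3 GFP-positive cells and by 1.64 ± 0.25 in code 3 GFP-negative cells (adjusted p = 0.000415). Gzmf was thus higher than at day 0 in code 4 GFP-negative cells, in which Gzmc was lower. Srgn was higher in GFP-positive cells by 1.89 ± 0.09 in code 4 and 1.61 ± 0.09 in code 3, and in GFP-negative cells by 0.77 ± 0.09 in code 4 and 0.67 ± 0.09 in code 3, against 7013, 6519 and 7217 CPM at day 0.

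Nkg7 differed by -0.995 ± 0.124 in GFP-positive and -1.24 ± 0.13 in GFP-negative cells of code 4, both called lower than the 1396, 1320 and 1291 CPM of day 0, and was not called in code 3. Gzma was higher in code 3 GFP-positive cells by 1.00 ± 0.17 (adjusted p = 0.000287) and in code 3 GFP-negative cells by 0.69 ± 0.17 (adjusted p = 0.0252), against 110.8, 113.1 and 139.6 CPM at day 0. The GFP-negative call was lost with no filter on low counts (0.0569) and without day 0 A (0.115) or B (0.0692) or code 3 GFP-negative A (0.0657) or B (0.323). In code 4 GFP-negative cells Gzma differed from day 0 by -0.33 (adjusted p = 0.283). Prf1 was higher in code 3 GFP-positive cells by 1.95 ± 0.35 (adjusted p = 0.000385), against 20.0, 14.5 and 16.3 CPM at day 0. In code 3 GFP-negative cells its difference of 0.86 was not called (adjusted p = 0.209).

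In code 4 GFP-positive cells Prf1 was higher by 1.14 ± 0.35 (adjusted p = 0.0269). Without code 4 GFP-positive B the Prf1 difference was 0.71 and its adjusted p 0.359. The call was also lost with no filter (0.0776) and without day 0 B (0.0993) or C (0.0928), code 3 GFP-negative A (0.0505) or B (0.0588), code 3 GFP-positive B (0.0612), or code 5 A (0.0627) or B (0.0622).

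Of the 4 tested serpins of the inhibitor list, 3 were called higher than at day 0 in each day 1 set and none lower. Serpinb9 was higher by log2 3.82 in code 4 GFP-positive, 1.59 in code 4 GFP-negative, 4.51 in code 3 GFP-positive and 3.10 in code 3 GFP-negative cells, against a mean of 30.8 CPM at day 0. Of 14 regulators, 6 and 7 were higher in code 4 and code 3 GFP-positive cells and 2 in each GFP-negative set, with none lower. Of 9 contents genes, 3 were lower in each code 4 set, 3 in code 3 GFP-positive and 2 in code 3 GFP-negative cells, while 2 were higher in code 4 GFP-positive cells and 1 in each other set. Ctsw was lower in all 4 sets than at day 0, where it averaged 736.8 CPM. Ctsc was higher than at day 0 in code 4 GFP-negative cells (152.9 against 44.8 CPM, 1.94 ± 0.28). Of 12 transport genes, 4 were lower and none higher in code 4 GFP-positive cells, 1 lower and 1 higher in code 4 GFP-negative cells, 5 lower and 1 higher in code 3 GFP-positive cells and none in code 3 GFP-negative cells. Of 5 death ligand genes, Lta was higher in all 4 sets.

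Markers of other cells differed from day 0 as well. Beside the day 1 sums given above, neutrophil markers summed to 11.6 to 38.9 CPM in code 4 and 76.2 to 85.4 CPM in code 3 GFP-positive cells. At day 0 phagocyte markers summed to 216.1 to 393.7 CPM, keratinocyte markers to 3459 to 4037 CPM and neutrophil markers to 2.87 to 19.1 CPM, with Csf3r at 0. Their part in these differences was not tested.

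The GFP-negative sets of codes 2, 5 and 6 have no day or treatment of their own by the labels, so each was set only against day 0 acetone. In code 2, Gzmb had 245.3 and 364.5 CPM, below all other libraries of the first experiment, and differed from day 0 by -1.56 ± 0.13 (adjusted p = 2.2e-07). Gzmc (7.81 and 27.1 CPM, -2.46 ± 0.31, adjusted p = 5.48e-05) and Gzma (34.0 and 37.3 CPM, -1.60 ± 0.19, adjusted p = 2.38e-05) were lower too. Srgn (8541 and 7866 CPM) was higher by 0.41 ± 0.09 (adjusted p = 0.0106). That Srgn call was lost without day 0 A (0.0514), B (0.0793) or C (0.0985), code 2 A (0.171), or code 5 A (0.0592) or B (0.0577). Gzmf (24.2 and 12.2 CPM) overlapped day 0, and Prf1 (7.81 and 6.44 CPM, -1.08, adjusted p = 0.16) and Nkg7 (952 and 1006 CPM, -0.29, adjusted p = 0.24) were not called. These were 3 lower and 1 higher of 7, against 2.34% of genes called lower, 1.19% higher and 3.53% either way, and the members' median was -1.08 beside -0.03. Phagocyte markers summed to 9.37 to 23.4 CPM in code 2 and 216.1 to 393.7 CPM at day 0, with 5 of 10 lower and Lyz2, Csf1r and Cd14 at 0 in code 2, and their part was not tested. Code 2 libraries held 2560156 and 2952120 reads.

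In code 6 the granzymes were higher than at day 0. Gzmb had 2304 and 2455 CPM (1.39 ± 0.12, adjusted p = 8.41e-07), Gzmf 99.9 and 92.4 CPM (2.48 ± 0.25, adjusted p = 5.46e-06) and Gzma 283.6 and 292.3 CPM (1.41 ± 0.17, adjusted p = 5.23e-05). The code 6 libraries were the highest of the first experiment for Gzma. Gzmc had 201.6 and 178.8 CPM (0.97 ± 0.26, adjusted p = 0.0348). That call was lost without day 0 A (0.0579), B (0.104) or C (0.102), code 3 GFP-negative A (0.0524) or B (0.055), code 3 GFP-positive A (0.053) or B (0.0533), code 5 A (0.0512), or code 6 A (0.268) or B (0.0977). Prf1, at 9.21 and 11.0 CPM, differed by -0.59 (adjusted p = 0.484). These 4 of 7 higher members stand against 2.86% of genes called higher, 1.7% lower and 4.56% either way. In code 6, 5 of 11 keratinocyte markers were higher and 1 lower, summing to 5733 to 6414 CPM, against 3459 to 4037 CPM at day 0. Natural killer and innate markers summed to 146.6 to 193.0 CPM in code 6, against 104.1 to 119.2 at day 0, with none of 3 called by edgeR or under an unadjusted p of 0.05. Neutrophil markers summed to 28.1 to 38.8 CPM in code 6, against 2.87 to 19.1 at day 0, and S100a8 and S100a9 were higher, 2 of 5 tested. The part of these in the granzyme differences was not tested.

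In code 5, Gzmf had 52.7 and 58.3 CPM and was higher by 1.498 ± 0.251 (adjusted p = 0.00285). Gzmb had 1622 and 1535 CPM and was higher by 0.62 ± 0.12 (adjusted p = 0.0103). The Gzmf call was lost without code 5 B (0.0525), and the Gzmb call without day 0 B (0.0775) or code 5 A (0.212) or B (0.0717), so 0 to 2 members were called as single libraries were left out. They were 2 of 7, against 0.276% of genes called higher, 0.621% lower and 0.897% either way. Gzmc (140.9 and 119.6 CPM), Gzma (99.96 and 122.1 CPM), Srgn (7446 and 7169 CPM) and Nkg7 (1361 and 1368 CPM) were not called. Keratinocyte markers were lower, 9 of 11, summing to 1140 to 1255 CPM in code 5. The pathway lists held few called genes in these sets: Calr, Coro1a and Irf4 were lower and Serpina3g and Id2 higher in code 2, Id2 was higher and Ctsl lower in code 5, and in code 6 Coro1a, Lta, Id2, Irf8 and 3 of 4 inhibitors were higher, among them Serpinb6b (111.9 against 50.6 CPM), and Tnf was lower.

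**Figure D3:**
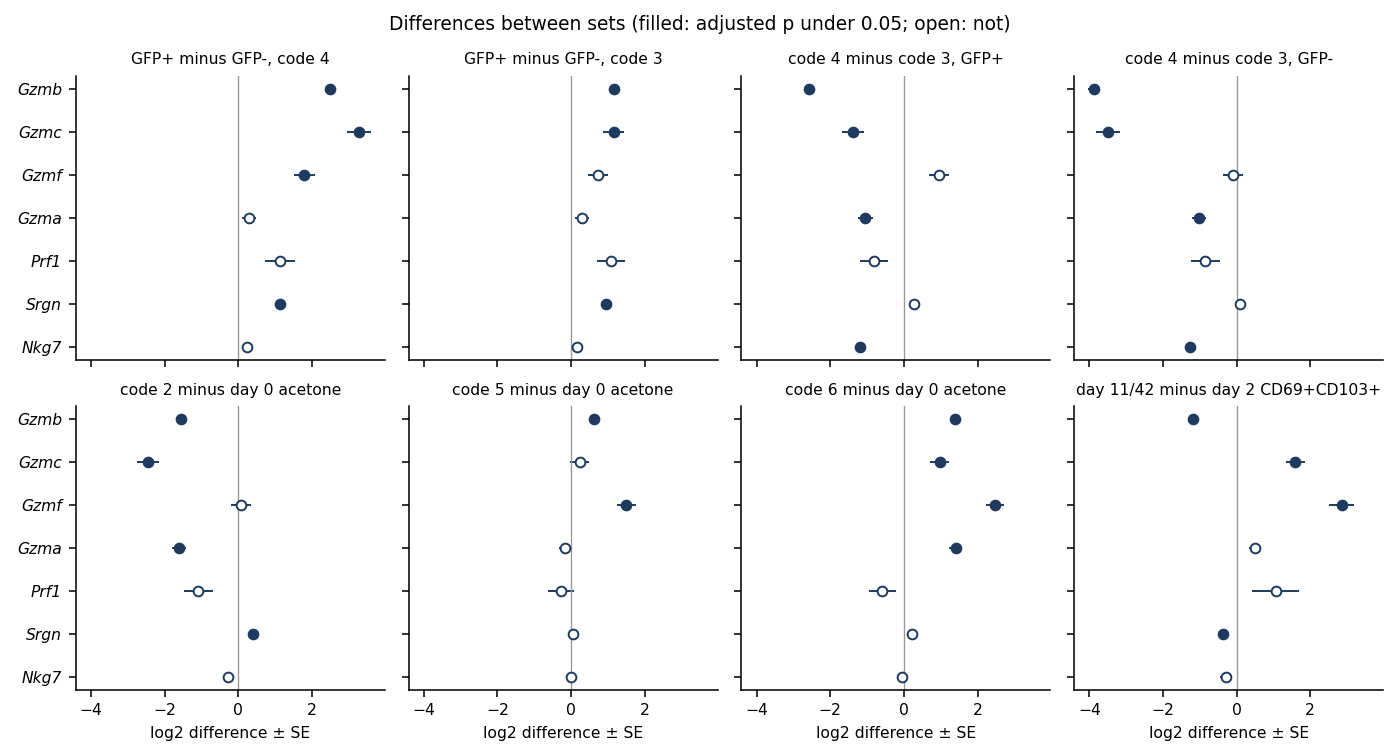
Log2 differences ± SE (x axis) of the tested members in 8 comparisons, 1 panel each, with filled points for adjusted p under 0.05. Gzmb and Gzmc lie left of 0 in code 4 minus code 3, and Gzmf lies right of 0 in GFP-positive cells there without being called.

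In the second experiment edgeR called 2 members, Gzmc and Gzmf, between the day 2 CD69+CD103+ cells of set 1_03 and the mean of the other 3 day 2 subsets. Gzmc had 37.6 and 53.4 CPM in 1_03, against 34.6 and 53.0 in 1_02, 4.78 and 8.13 in 1_04 and 4.92 and 5.85 in 1_05. Set 1_02 overlapped 1_03, and the other 2 subsets lay below both. The difference between 1_03 and the mean of the other 3 was 2.05 ± 0.23 (adjusted p = 0.00014). Gzmf had 15 and 13.8 CPM in 1_03, against 18.9 and 14.6 in 1_02, 0.728 and 0 in 1_04 and 2.57 and 3.68 in 1_05. Here too 1_02 overlapped 1_03 and the other 2 subsets lay below both. Its difference was 2.34 ± 0.31 (adjusted p = 0.000865), which was 3.90 without replicate 1 of set 1_04, whose other library holds no Gzmf read. These 2 of 8 members stand against 0.319% of 12236 tested genes called higher, 0.049% lower and 0.368% either way, and the members' median was 0.01 beside 0.07.

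In a test of any difference among the 4 day 2 subsets, Gzmc (adjusted p = 1.27e-05), Gzmf (3.6e-05), Gzmb (0.00306) and Gzma (0.00643) were called, 4 of 8 members against 1.21% of genes. Gzmb had 14150 and 13930 CPM in 1_03, against 22010 and 21730 in 1_02, 11710 and 10040 in 1_04 and 9367 and 7594 in 1_05, and the 4 subsets did not overlap. Gzma had 164.3 and 145.8 CPM in 1_03, against 297.8 and 343.0 in 1_02, 257.1 and 289.4 in 1_04 and 143.8 and 160.9 in 1_05. Sets 1_03 and 1_05 overlapped and lay below 1_02 and 1_04. The difference of -0.55 between 1_03 and the rest was not called for Gzma (adjusted p = 0.219), though DESeq2 called it (0.00147), and Prf1 (3.42 to 4.68 CPM in 1_03 and 2.64 to 8.27 in the others) differed by -0.52 without a call. Srgn had 10110 to 12120 CPM and Nkg7 1106 to 1537 CPM in the 8 day 2 libraries.

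Of 47 tested genes of the 5 pathway lists, edgeR called none between 1_03 and the other subsets, and 6 had an unadjusted p under 0.05. The test of any difference called 2 regulators, Id2 and Tcf7. Itgae had 68.3 and 88.3 CPM in 1_03, against 1.13 to 7.09 in 1_02 and 1_04 and 83.7 to 84.4 in 1_05. Phagocyte markers summed to 477.0 to 507.5 CPM in 1_03, against 121.3 to 125.6 in 1_02, 291.9 to 321.2 in 1_04 and 608.0 to 665.7 in 1_05. Natural killer and innate markers summed to 90.7 to 116.4 CPM in 1_03, above the 19.5 to 64.8 of the other subsets, and Fcer1g was called higher, 1 of 4 tested. Neutrophil markers summed to 122.0 to 130.7 CPM in 1_03, against 12.5 to 13.3 in 1_02, 65.5 to 111.6 in 1_04 and 93.5 to 101.0 in 1_05. Keratinocyte markers summed to 4864 to 7541 CPM in 1_03, against 3200 to 3271 in 1_02, 4277 to 4709 in 1_04 and 5621 to 6797 in 1_05. The part of these in the Gzmc and Gzmf differences was not tested.

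The TRM of day 11 and day 42 held less Gzmb and more Gzmc and Gzmf than the CD69+CD103+ cells of day 2. These and Srgn, which was lower, were 4 of 8 tested members, 2 higher and 2 lower, against 3.33% of genes called higher, 4.89% lower and 8.21% either way. The members' median was 0.35, beside -0.07 for all genes. Gzmb had 11510 and 7376 CPM in 2_03, 7316 and 6986 in 3_03, 4060 and 5466 in 4_03 and 4624 and 4595 in 5_03, against 14150 and 13930 in 1_03. All 8 later libraries lay below both of day 2, and the difference was -1.19 ± 0.14 (adjusted p = 1.42e-05). The later sets had acetone or TA and the day 2 subsets had no treatment, so day and treatment cannot be told apart in the differences from 1_03.

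Gzmc had 188.4 and 105.7 CPM in 2_03, 45.0 and 40.7 in 3_03, 210.7 and 243.3 in 4_03 and 294.1 and 227.2 in 5_03, against 37.6 and 53.4 in 1_03. Set 3_03 lay within the range of 1_03 and the other 3 sets above it. The difference of the 4 sets from 1_03 was 1.60 ± 0.26 (adjusted p = 0.000583). Gzmf had 110.9 and 71.5 CPM in 2_03, 236.6 and 223.9 in 3_03, 69.8 and 74.6 in 4_03 and 82.7 and 79.1 in 5_03, against 15 and 13.8 in 1_03. All later libraries lay above day 2, and here 3_03 was the highest set. The Gzmf difference was 2.85 ± 0.34, or 7.23-fold (adjusted p = 2.03e-05).

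Srgn had 11790 and 10580 CPM in 3_03 and 6954 to 8581 in the other 3 later sets, against 11600 and 10110 in 1_03. Its difference of -0.38 ± 0.11 (adjusted p = 0.0383) was not called without 1_03 replicate 1 (0.514) or 2 (0.0634), 2_03 replicate 2 (0.053) or 5_03 replicate 1 (0.053). Gzma differed by 0.49 ± 0.15 from 1_03, which was not called (adjusted p = 0.053). This mean joins sets that lay on both sides of 1_03, which averaged 155.1 CPM. Sets 2_03 and 3_03 averaged 445.6 and 887.5 CPM, and 4_03 and 5_03 averaged 46.7 and 126.1. Median-of-ratios scaling called Gzma (0.032), as did DESeq2 (0.00045). Prf1 had 4.94 to 14.96 CPM in the later sets and 3.42 and 4.68 in 1_03 (1.06, adjusted p = 0.389), and Nkg7 905 to 1414 CPM and 1174 and 1396 (-0.30, adjusted p = 0.327).

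Among the 4 later sets, 6 of 8 members differed by the test of any difference, against 2.12% of genes. Gzma (adjusted p = 1.44e-09) separated them most. It had 500.8 and 390.4 CPM in 2_03, 890.1 and 884.8 in 3_03, 39.7 and 53.8 in 4_03 and 129.3 and 122.9 in 5_03, and no 2 of these sets overlapped. Its order was 3_03, 2_03, 5_03 and 4_03. Gzmc (adjusted p = 0.000989) ran from 3_03, the lowest, over 2_03 to 4_03 and 5_03, which overlapped. Gzmb was also called (0.00538), with 2_03 and 3_03 above 4_03 and 5_03.

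Gzmf (adjusted p = 0.0121), Srgn (0.0136) and Gzmk (0.0328) were called too, each with 3_03 as the highest set. These 3 calls rested on single libraries. Without 3_03 replicate 1 the adjusted p was 0.102 for Gzmf and 0.136 for Srgn. Without 3_03 replicate 2 it was 0.051 for Gzmf and 0.104 for Gzmk. The Gzmk call was also lost without 4_03 replicate 1 (0.0526) or 2 (0.0527). Gzmk, the tryptase-like granzyme next to Gzma, had 7.32 and 15.6 CPM in 3_03 (29 and 63 reads), 2.24 and 0.601 in 2_03 and no read in 4_03 and 5_03, where 3 reads would be 0.532 and 0.444 CPM in 4_03 and 1.02 and 0.405 CPM in 5_03. At day 2 it had 54 and 34 reads in 1_04, 5 and 38 in 1_02, 27 and 7 in 1_05 and 5 and 0 in 1_03, and its difference of -3.86 ± 1.52 between 1_03 and the other subsets was not called (adjusted p = 0.6).

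**Figure D4:**
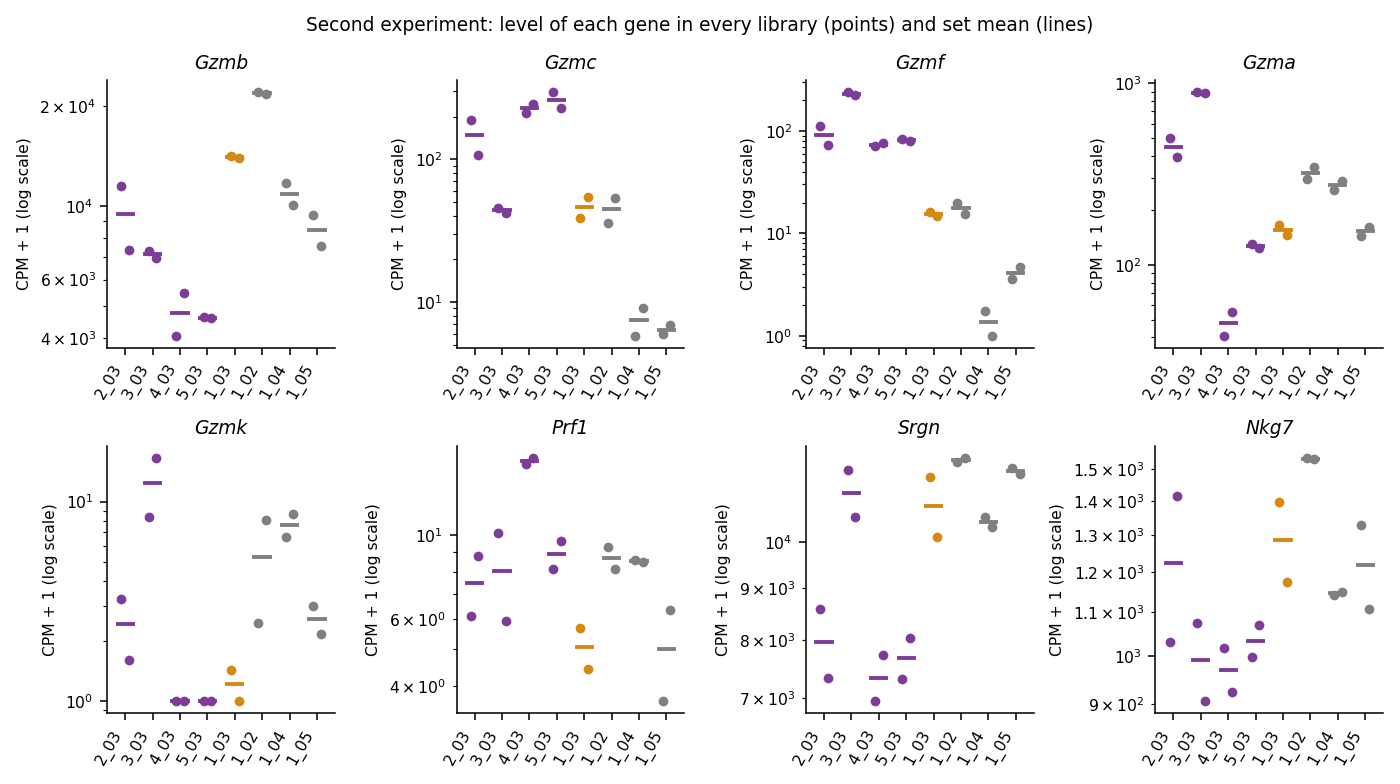
CPM + 1 on a log scale (y axis) of the members in the 8 sets of the second experiment (x axis), with a point per library and a line at each set's mean. Gzma spans 39.7 to 890.1 CPM among the day 11 and day 42 sets, and Gzmb is highest in set 1_02.

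Of the pathway genes, 2 of 5 tested inhibitors were called lower in the mean of the later sets than in 1_03. Serpinb9 averaged 490.9 CPM in the later sets and 552.3 in 1_03 (-0.50 ± 0.13, adjusted p = 0.024), and Serpinb6b 513.2 and 629.4 (-0.57 ± 0.16). In both genes, however, set 3_03 lay above the average of 1_03, and only the other 3 later sets lay below it. Of 15 regulators 2 were higher and 6 lower. Tbx21, which encodes the effector factor T-bet, was higher (66.9 against 9.66 CPM, 2.62 ± 0.46, adjusted p = 0.00111), and Stat5a (15.5 against 67.6 CPM), Stat4 (39.2 against 120.7 CPM) and Batf (30.1 against 79.3 CPM) were lower. Of 10 contents genes Ctsw (507.2 against 221.4 CPM) and Ctsd (228.5 against 121.7 CPM) were higher and Calr lower. Of 12 transport genes Sytl2 was higher (98.7 against 40.4 CPM), and Stx11 (82.5 against 272.1 CPM) and Coro1a were lower. Fasl was the 1 death ligand gene called, higher (73.3 against 32.0 CPM, 1.17 ± 0.30). The lists' medians were -0.50 for inhibitors, -0.52 for regulators, -0.25 for contents, -0.08 for transport and -0.22 for death ligands. In the test of any difference among the later sets, Serpinb9 (adjusted p = 3.76e-07), Serpinb6b (1.02e-05), Ctsc, Stx11, Irf4, Tcf7, Stat4 and Id3 were called. As with Gzma, 3_03 was the highest set for Serpinb9, at 1014 to 1099 CPM against 158.4 to 488.0 in the other 3, for Serpinb6b, at 1001 to 1138 against 207.6 to 487.2, and for Ctsc, at 321.4 to 327.8 against 82.6 to 180.4.

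Set 3_03 also stood apart in the sums of mast cell and CD4 T cell markers, though not in that of natural killer and innate markers. Its mast cell markers summed to 33.3 to 51.5 CPM, against 0.3 to 11.6 in the other later sets. Cpa3, Mcpt4, Cma1 and Tpsb2 had reads in both of its libraries and none in the other 3 sets. Of 5 tested mast cell markers edgeR called none among the later sets, and 3 had an unadjusted p under 0.05. Ctla4 with the other CD4 T cell markers summed to 317.0 to 352.3 CPM in 3_03 and 97.3 to 239.8 in the other later sets, with Cd4 and Foxp3 at 0 in 3_03. Natural killer and innate markers summed to 72.1 to 155.6 CPM in 3_03, against 29.1 to 174.3 in the others. Their part in the Gzma, Gzmf and Gzmk levels was not tested. Between day 11 or day 42 and day 2, neutrophil markers S100a8 and S100a9 were lower, 2 of 4 tested, with sums of 2.47 to 18.3 CPM in the later sets and 122.0 to 130.7 CPM in 1_03, where Csf3r was at 0. CD4 T cell markers summed to 97.3 to 352.3 CPM in the later sets and 576.9 to 719.4 CPM in 1_03, with Ctla4 and Foxp3 called lower, 2 of 3 tested. Of 4 tested natural killer and innate markers 1 was higher and 1 lower, and of 11 keratinocyte markers 1 was higher and 4 were lower. The part of these in the differences from 1_03 was not tested.

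Within a library, Gzmf and Gzmc did not keep 1 ratio. The ratio of their read counts is not a ratio of molecules per length and is given as a description, with no test. Gzmf had 607 and 641 reads per 1000 Gzmc reads in code 4 GFP-positive libraries and 1600 and 1912 in code 4 GFP-negative ones. Code 3 had 138 and 111 in GFP-positive and 154 and 178 in GFP-negative libraries, near the 182, 150 and 200.5 of day 0. Codes 5 and 6 lay between these, at 374 and 488 and at 495.5 and 517, while code 2, with few reads of either gene, had 3100 and 450. In the second experiment 3_03 had 5264 and 5497, far above 588 and 676 in 2_03, 331 and 307 in 4_03, 281 and 348 in 5_03 and 399 and 258 in 1_03. The other day 2 subsets had 547 and 276 in 1_02, 522 and 629 in 1_05, and 152 and 0 in 1_04. In code 4 GFP-negative cells, as in 3_03, Gzmc was the lowest or nearly the lowest of its experiment's TRM sets while Gzmf was not.

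**Figure D5:**
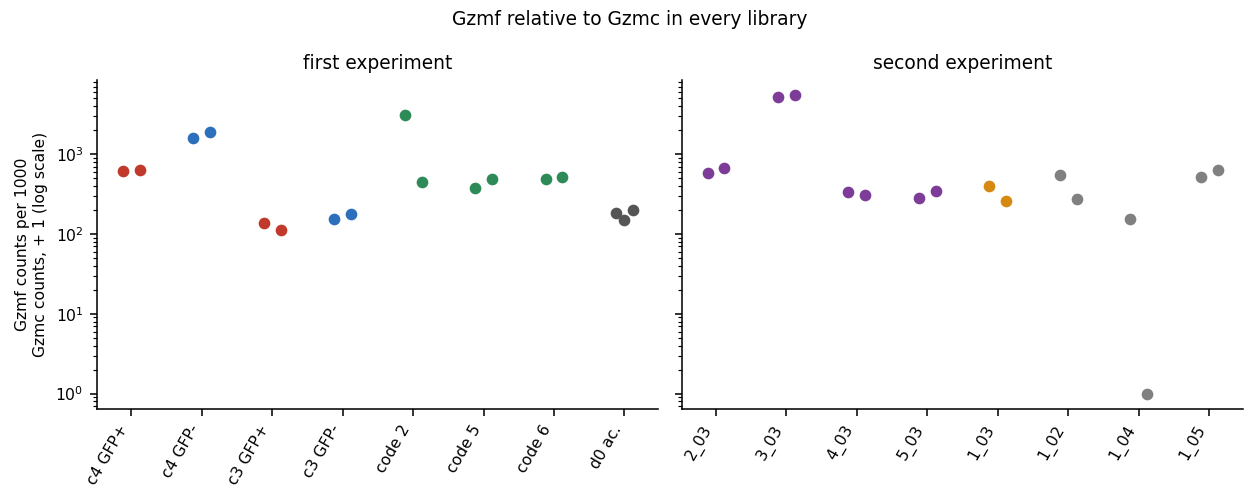
Gzmf reads per 1000 Gzmc reads, plus 1, on a log scale (y axis) by set (x axis; c4 and c3 are codes 4 and 3, d0 ac. is day 0 acetone), with a point per library. Set 3_03 (5264 and 5497) and code 4 GFP-negative cells (1600 and 1912) stand above the other sets, apart from 1 code 2 library at 3100.

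Gzma and Gzmb also went apart. Gzma had 10.6 and 13.1 reads per 1000 Gzmb reads in code 4 GFP-positive libraries and 51.6 and 57.8 in code 4 GFP-negative ones. In code 3 it had 3.90 and 4.36 in GFP-positive and 6.22 and 9.07 in GFP-negative libraries, and at day 0 105.6, 130.7 and 124.6. In the later TRM it had 121.7 and 126.6 in 3_03 and 9.78 and 9.84 in 4_03, with 11.6 and 10.5 in 1_03.

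Gzmd and Gzme, the far end of the cluster, were nearly silent. Gzmd had at most 7 reads in a library and Gzme at most 9, and both highest counts were in code 3 GFP-positive replicate B. Gzmd had 5 and 7 reads in the code 3 GFP-positive libraries, Gzme 0 and 9. Gzmk had 0 to 13 reads in the libraries of the first experiment, the highest in code 6. No fold or test is given for these counts.

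Across the 17 libraries of the first experiment, the log2 level of Gzmb correlated with that of Prf1 (Pearson r = 0.87) and Gzmc (0.86), less with Srgn (0.64), Gzmf (0.63) and Gzma (0.60), and not with Nkg7 (-0.00). Across the 16 libraries of the second experiment Gzmc went with Gzmf (0.80), and Gzmb with Nkg7 (0.74) and Srgn (0.72) and against Gzmc (-0.44). These libraries share sets and differ in depth, so the values are descriptions. Among 5577 genes with a mean of at least 10 CPM, those most like Gzmb in the first experiment were Tnfrsf9 (r = 0.949), Slamf7 (0.934) and Hsp90b1 (0.932), and those most like Gzma were Atp5d (0.900), Psma2 (0.886) and Actg1 (0.853). Among 6366 genes in the second, they were Il2ra (0.952), Gapdh (0.951) and Cox17 (0.937) for Gzmb, and Serpinb9 (0.879), Rnf157 (0.820) and Dusp10 (0.794) for Gzma.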

How the data were processed

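RNA of sorted skin CD8 T cells was sequenced by CEL-seq2, which reads the 3′ ends of transcripts, in 33 libraries of 2 experiments. The deposited values are raw read counts per gene. Per the submitters' processing notes they were made with bcl2fastq 2.2, BWA 0.7.15 and HTSeq on GRCm38. The gene annotation, the use of strand and any collapse by molecular barcode are not given in the sources used here, so the floors of 3 reads cover counting error only. CPM is a gene's count over the library total of all gene rows. ERCC control rows (0 to 16 reads per library) were left out.

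Column headers hold set codes, replicate letters (first experiment only) and GFP state. Planned comparisons of named treatments or days could not be made, and sets were compared by code. Counts were tested with edgeR 4.0.16 in R 4.3.3 (filterByExpr by set, TMM, robust quasi-likelihood F test), with 1 mean per set and all libraries of an experiment in 1 fit, on 11588 and 12236 genes. The SE is the log2 difference over the square root of F. Benjamini-Hochberg adjustment ran over all tested genes, and a gene was called under 0.05. Uncalled log2 differences under 0.25 are not printed.

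The 10 members, 5 pathway lists (52 genes) and the marker lists were chosen with earlier results of these data known. Of pathway lists, up to 4 called genes were named by smallest p. Genes most like Gzmb and Gzma were the 3 with the highest Pearson r over log2(CPM + 1), at a mean of 10 CPM or more. Positions come from GENCODE (GRCm38) and promoters from RefSeq (GRCm38.p6); for Srgn, with 2 promoters, none is printed. Alternatives were median-of-ratios scaling, no low-count filter, DESeq2 1.42.0, a replicate block, members left out of the scaling, each library left out in turn, other CPM totals and a shorter promoter window. The fit was tested on simulated counts.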

Additional observations from a re-analysis of the deposited data

Results flagged for a closer look

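The GFP difference of 2 members differed between the day 1 arms in a direct test of that difference. For Gzmb the log2 difference between GFP-positive and GFP-negative cells was larger by 1.321 in the code 4 arm than in the code 3 arm (SE 0.19, edgeR adjusted p = 0.000807), and it kept its call without each library in turn. For Gzmc it was larger by 2.124 (SE 0.42, adjusted p = 0.0162), and that call was lost without each of 6 libraries taken alone. In both genes the GFP-positive sort was higher than the GFP-negative sort in both arms, and the lowest of the 4 sets was code 4 GFP-negative. The larger difference in code 4 holds on the log2 scale. In CPM the gap between the sorts was wider in code 3 for both genes.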

How the results depend on the processing

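Of 70 called member results, 55 were called in every setting and library left out. None that had a direction changed it, and the tests of any difference have none. Under the other settings 330 of 334 values kept their call, and with a library left out 1115 of 1174 did, also with none reversed. The calls lost, apart from 2 under the replicate block, stand beside each result. The number of members called with single libraries left out ran from 2 to 5 for code 4 minus code 3 in GFP-positive cells (2 without code 4 GFP-positive A), from 1 to 2 for the difference between arms and from 0 to 2 for code 5 (0 without code 5 B).

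Counts over all genes moved more: DESeq2 and the other settings gave up to 978 against 621 called for GFP in code 3, 1460 against 935 in code 4, 1273 against 775 and 660 against 367 for code 4 minus code 3 in GFP-negative and GFP-positive cells, and 310 against 103 between arms. Against day 0 the range was 287 to 791 against 457 for code 3 GFP-negative cells and up to 1520 (1000) for code 4 GFP-negative cells, 284 to 755 (409) for code 2, 67 to 297 (104) for code 5 and 304 to 909 (528) for code 6. For day 2 it was up to 173 (45) and 570 (148), and among the later sets up to 943 (259). With single libraries left out the lowest counts were 312 for GFP in code 3, 356 and 179 for code 4 minus code 3 in GFP-negative and GFP-positive cells, and 47 between arms. Against day 0 they were 620 and 202 for code 4 and code 3 GFP-negative cells, 1415 (2186) and 1267 (2200) for code 4 and code 3 GFP-positive cells, 233 for code 2, 39 for code 5 and 212 for code 6. Set 1_03 had 18 to 74 (45) and the later sets against it 401 (1005).

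Replicate letters gave no sign of pairing between sets. For each set the log2 level in A minus that in B was taken per gene. These A minus B differences correlated at -0.076 to 0.035 between sets, over 28 pairs of sets. Such low values do not show that the GFP sorts of an arm came from separate mice, since mice may differ little beside other spread. With the replicate block, 5 members were called for GFP over both arms, and 2 calls were lost, Gzmc in code 6 (adjusted p = 0.13) and Prf1 in code 4 GFP-positive against day 0 (0.0913). In the second experiment no paired analysis was possible because the columns carry no replicate number. Replicates 1 and 2 named here for it are only the first and second column of a set. CPM without mitochondrial counts were 1.15 to 1.58 times those given, and without other cells' markers 1 to 1.009 times. The latter total left out only the listed marker genes of keratinocytes, phagocytes, neutrophils and fibroblasts. Its ratio does not measure how much other RNA such cells gave. Depth limits Gzmd, Gzme, Gzmk and Prf1, which had few reads, and 2 libraries a set limit every comparison.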
